A study of Drosophila melanogaster with 8 samples.

Results

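The RNA of 8 DNA transposons (1360, Bari1, hobo, pogo, P-element, FB, HB and S-element) was followed in Drosophila melanogaster ovaries with and without a working egt gene. They were taken by name from the transposon rows of the total RNA table, which list 119 transposons of this species, and were kept whether or not any RNA was detected. Total RNA was sequenced in 4 libraries of dissected ovaries. Wild type was the laboratory strain Oregon-R, with 2 libraries (wild type 1 and wild type 2). The mutants carried either of the alleles egt17 and egt8, which the labels call null, with 1 library each. Flies were kept at a constant temperature, and the labels give no age, no second allele and no further treatment. With 1 library for each allele, the alleles stand in for replicates of the mutant, and a difference between them cannot be told apart from one between libraries. The labels do not say that libraries came from separate groups of flies, so the spread between them may be technical.

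DNA transposons move as DNA. A transposase, encoded by the intact copies, binds the inverted repeats at the ends of the element, cuts it out and joins it elsewhere; shortened copies with intact ends can be moved by the transposase of others. In the fly germline, transposon RNA is held down by Piwi-interacting RNAs (piRNAs), small RNAs cut from transcripts of piRNA clusters, and the series title names the mutated gene boot, whose product is known from the export of cluster transcripts. Retrotransposons, which copy themselves through RNA, make up most of the other transposon rows.

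Depth was recovered exactly from the deposited values. FPKM (fragments per kilobase, scaled to the mapped reads of the library) advanced in steps of whole reads, and the same steps gave 6320223 reads in wild type 1, 16615907 in wild type 2, 6147564 in egt17 and 15928896 in egt8. Read numbers and element lengths below follow from these steps. Each row stands for a family of repeated copies, so it has no single genome position, and reads could come from any copy. Intervals are 95% exact Poisson intervals for a level and exact conditional (Clopper-Pearson) intervals for a ratio, and cover counting error only. Wild type 1 and egt17 thus formed a shallow pair of libraries and wild type 2 and egt8 a deep pair. Across 8755 features, log2 values correlated at 0.966 and 0.948 within these pairs and at 0.901 between the wild types; these are correlations over genes, which are not independent replicates. The labels name no batch, so each comparison is given within the pairs too. Boot itself, taken to be the mutated gene, had 88.6 and 89.7 FPKM in the wild types against 40.6 FPKM for egt17 and 52.1 FPKM for egt8, lower in both mutants; limma did not call it (adjusted p of 0.9999, and 0.164 with the pair term). Marker sums are given in the order wild type 1, wild type 2, egt17 and egt8. The 4 germline markers found summed to 429, 812, 564 and 927 FPKM. Most of this was osk, at 305, 673, 432 and 749 FPKM. Within the pairs vas, at 64.5 to 98.9 FPKM, went opposite ways, and osk, bam and aub were higher in both alleles. The 5 follicle cell markers summed to 30.5, 57.5, 43.1 and 94.5 FPKM. The largest was tj, at 14.5, 29.4, 21.9 and 59.3 FPKM. Within the pairs tj, Fas3 and br were higher in both alleles and sim was lower in both. Upd1, under 1 FPKM in each library, went opposite ways. The 3 hemocyte markers summed to 5.41, 24.8, 4.07 and 16.6 FPKM. The hemocyte sum was nearly all srp, while Hml and NimC1 were under 1 FPKM in each library and highest in egt8, at 0.593 and 0.421 FPKM. The 4 muscle markers summed to 198, 42.3, 55.7 and 374 FPKM, and were highest in wild type 1 or egt8. Eggshell chorion genes, made by late follicle cells, summed to 25405, 18338, 4060 and 9320 FPKM, all 5 lower in both mutants than in both wild types. All 6 testis markers were at 0 in both wild types and summed to 0.215 FPKM for egt17 and 1.05 FPKM for egt8. The part of cell makeup in the transposon values was not tested, and in whole ovaries fewer cells of a type cannot be told apart from less RNA per cell.

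Of the 8 DNA transposons, 7 gave reads and P-element gave none. By point value relative to the wild-type library of the same pair, 6 of the 7 were higher in both alleles (pogo, hobo, 1360, S-element, FB and HB). Bari1 was lower in both. Of all 13613 detected features, 24.4% were higher within both pairs and 26.7% lower. Higher in both mutant libraries than in both wild-type libraries were pogo, hobo and S-element, against 11.7% of all features, and lower was Bari1, against 9.48%. The genotypes overlapped for 1360, FB and HB. None of the differences passed the test over all genes.

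**Figure D1:**
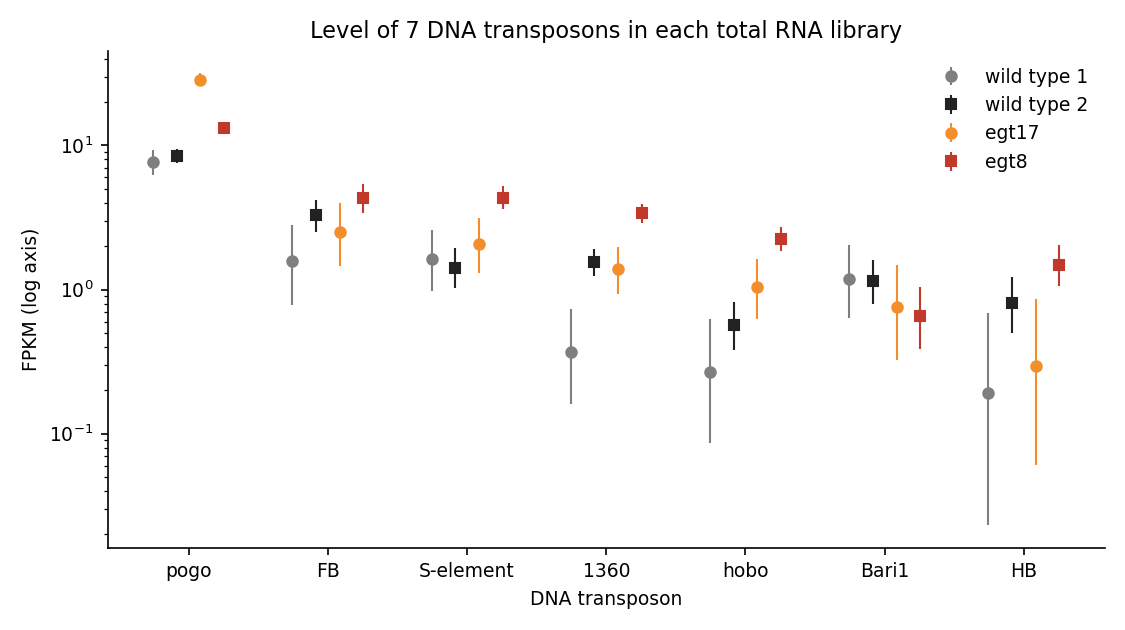
FPKM of the 7 DNA transposons that gave reads, in each of the 4 total RNA libraries, on a log axis; points are single libraries and bars are 95% Poisson intervals for counting error. Pogo was highest in every library, at 7.61 to 28.5 FPKM, and Bari1 is the element whose mutant libraries lie below both wild types.

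The P superfamily was represented by 1360 and P-element. 1360 (FBgn0005673, 3409 bases), also called hoppel, is an old family found mostly as broken copies in pericentric DNA and on the small chromosome 4. Its RNA stood at 0.371 FPKM in wild type 1 (8 reads, interval 0.160 to 0.732 FPKM), 1.55 FPKM in wild type 2 (88 reads), 1.38 FPKM in egt17 (29 reads) and 3.37 FPKM in egt8 (183 reads). Its genotypes overlapped, because egt17 lay below wild type 2. Within the pairs the level was 3.73-fold higher in egt17 (interval 1.66 to 9.43) and 2.17-fold higher in egt8 (1.67 to 2.83). The wild-type libraries differed from each other by 4.18-fold (2.03 to 9.99), so the distance between libraries of the same genotype was as large as that between genotypes.

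P-element (FBgn0003055) entered this species in recent times and is known to be missing from many older laboratory stocks. It was listed at 0 in all 4 libraries, and a count of 0 allows up to 3 reads in each by the one-sided 95% limit (3.69 reads by the two-sided interval used for the other elements). The table also holds P-element rows of other Drosophila species, under the names P-element_T and P-element_O, and these were at 0 in every library as well.

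The Tc1/mariner superfamily, found throughout the animals, was represented by pogo, S-element, Bari1 and HB. Pogo (FBgn0003122, 2121 bases) stood at 7.61 FPKM in wild type 1 (102 reads) and 8.43 FPKM in wild type 2 (297 reads); egt17 had 28.5 FPKM (372 reads) and egt8 had 13.1 FPKM (443 reads). The wild types were close to each other, with a ratio of 1.11 (interval 0.882 to 1.40), and both mutants lay above them. The ratio to the paired wild type was 3.75 in egt17 (3.0 to 4.71) and 1.56 in egt8 (1.34 to 1.81). Pogo was 2.18-fold higher in egt17 than in egt8, the only one of the 7 elements with a difference beyond counting error in that direction, and between the alleles this was not tested.

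S-element (FBgn0004905, 1736 bases), a Tc1-like element, had the reverse order. It stood at 1.64 FPKM in wild type 1 (18 reads) and 1.42 FPKM in wild type 2 (41 reads), 2.06 FPKM in egt17 (22 reads) and 4.34 FPKM in egt8 (120 reads). Both mutants were above both wild types, but in egt17 the ratio to wild type 1 was 1.26 with an interval from 0.643 to 2.49, a difference not detectable at this depth. In egt8 the ratio to wild type 2 was 3.05 (2.13 to 4.47).

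Bari1 (FBgn0005773, 1728 bases), a Tc1-like element of which few copies lie outside a tandem array in pericentric DNA, was the only member lower in the mutants. Its levels were 1.19 FPKM in wild type 1 (13 reads), 1.15 FPKM in wild type 2 (33 reads), 0.753 FPKM in egt17 (8 reads) and 0.654 FPKM in egt8 (18 reads). Its groups did not overlap. The ratio to the paired wild type was 0.633 in egt17 (interval 0.227 to 1.65) and 0.569 in egt8 (0.302 to 1.04), so neither pair showed a difference beyond counting error.

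HB (FBgn0001181, 1653 bases), another Tc1-like family, was the lowest member with reads in wild type 1 and in egt17. It stood at 0.191 FPKM in wild type 1 (2 reads), 0.801 FPKM in wild type 2 (22 reads), 0.295 FPKM in egt17 (3 reads) and 1.48 FPKM in egt8 (39 reads). These values followed the library pair more than the genotype, with a 4.18-fold distance between the wild types (interval 1.03 to 36.7). In the shallow pair 2 and 3 reads show no direction (ratio 1.54, interval 0.177 to 18.5). In the deep pair the ratio was 1.85 (1.07 to 3.27).

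Hobo (FBgn0001210, 2959 bases), the element of the hAT superfamily, causes its own form of hybrid dysgenesis when it becomes active in the germline. It stood at 0.267 FPKM in wild type 1 (5 reads), 0.569 FPKM in wild type 2 (28 reads), 1.04 FPKM in egt17 (19 reads) and 2.25 FPKM in egt8 (106 reads). Both mutants were above both wild types. Hobo had the most similar ratios in the 2 alleles of the 3 non-overlapping higher members, at 3.91 in egt17 (interval 1.41 to 13.4) and 3.95 in egt8 (2.58 to 6.22).

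FB (FBgn0000638, 1106 bases), the foldback element, consists mostly of long inverted repeats and codes for no transposase of its own unless it carries the NOF sequence. It stood at 1.57 FPKM in wild type 1 (11 reads), 3.26 FPKM in wild type 2 (60 reads), 2.50 FPKM in egt17 (17 reads) and 4.31 FPKM in egt8 (76 reads). Again the genotypes overlapped, and the ratio to the paired wild type was 1.59 in egt17 (0.702 to 3.75) and 1.32 in egt8 (0.930 to 1.89). NOF, the coding sequence found in some FB copies and listed on a row of its own, had 0 reads in both wild types, 2 reads in egt17 and 5 reads in egt8.

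**Figure D2:**
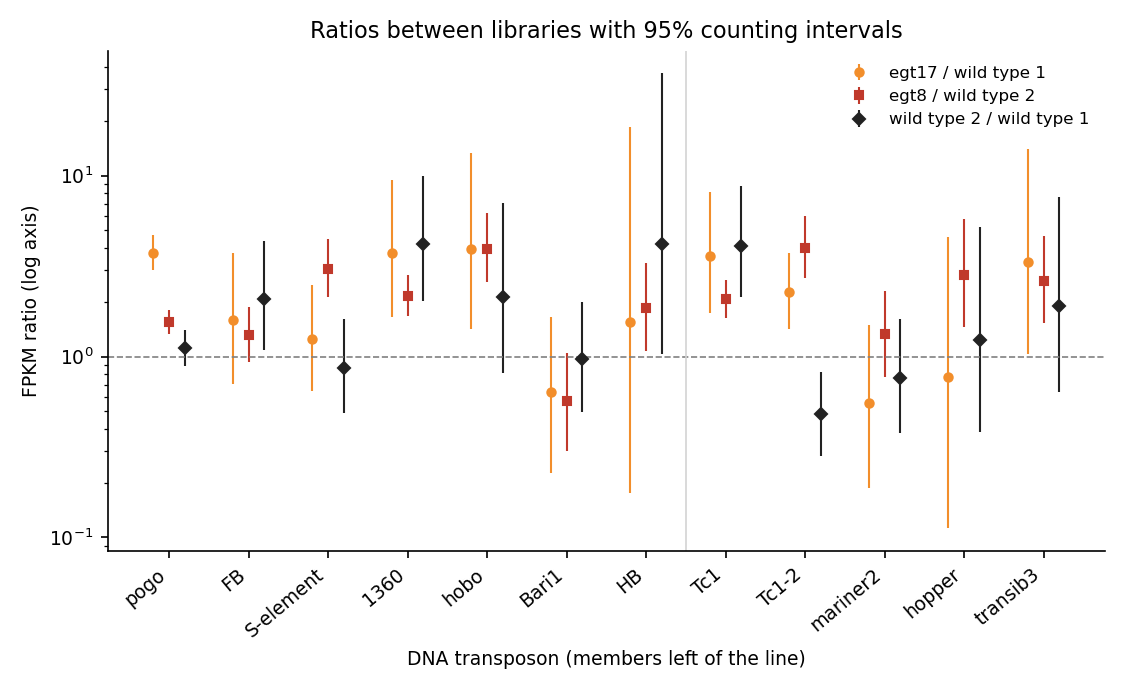
Ratios of FPKM between libraries on a log axis for 12 DNA transposons, the 7 members left of the line and 5 others right of it; circles are egt17 over wild type 1, squares egt8 over wild type 2 and diamonds wild type 2 over wild type 1, with 95% conditional intervals for counting error. The dashed line marks equal levels; pogo, 1360 and hobo are the listed elements whose whole intervals lie above it in both pairs, and for 1360 and HB the wild types differ from each other by 4.18-fold.

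Pogo was highest in all 4 libraries, and the order below it varied. In wild type 1 it was followed by S-element, FB and Bari1, whose intervals overlapped, and in wild type 2 by FB and then by 1360, S-element and Bari1, which overlapped. In egt17, FB, S-element, 1360 and hobo followed in that order with overlapping intervals. The overlap did not end at these groups. Intervals of Bari1 also overlapped those of 1360 in wild type 1, of HB and hobo in wild type 2, and of 1360 and hobo in egt17. In egt8, S-element (4.34 FPKM), FB (4.31 FPKM) and 1360 (3.37 FPKM) came next with overlapping intervals, and Bari1 (0.654 FPKM) was the lowest with reads. These are levels per length of the row, while reads could come from shortened copies, so the order of elements of different size is approximate.

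Differences between genotypes were tested with limma on log2(FPKM + 1) over all 8755 features with at least 1 FPKM in at least 2 libraries, 2 wild-type against 2 mutant libraries. On this scale changes of low elements are understated. None of the 8755 features passed at an adjusted p of 0.05 (0.0% called), and 166 had an unadjusted p under 0.05. Of the 8 members 6 passed the filter, hobo only through its mutant libraries and Bari1 only through its wild-type libraries. The log2 difference, mutant minus wild type, was 1.18 ± 0.52 (SE, n = 2 against 2, limma) for pogo, 0.87 ± 0.48 for hobo, 0.79 ± 0.58 for 1360, 0.68 ± 0.50 for S-element, 0.38 ± 0.52 for FB and -0.35 ± 0.42 for Bari1. The limma adjusted p was 0.9999 for each of the 6. Since hobo and Bari1 entered through the group in which they were high, and HB did not enter, these 3 were also read from the fit with no filter. There the log2 difference was 0.87 ± 0.36 for hobo, -0.35 ± 0.26 for Bari1 and 0.29 ± 0.41 for HB, each with a limma adjusted p of 0.9998. With no filter, limma again called 0 of 13613 features (0.0% called), 407 having an unadjusted p under 0.05.

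With the library pair as a term in the limma fit, 13 of the 8755 features passed (0.148% called), and none of them was a DNA transposon. The pairs were read from these same data, not from the labels, so p-values of this fit may be too small. The smallest adjusted p among the 6 tested members was 0.283, for pogo, with an unadjusted limma p of 0.0140 and a log2 difference of 1.18 ± 0.34. For 1360 the limma adjusted p was 0.398. For hobo and Bari1 it was 0.386 and 0.679 with the filter, and 0.520 and 0.645 in the limma fit with the pair term and no filter, which called 0 of 13613 features (0.0% called). Without egt8 the pooled difference of pogo was 1.71 and without egt17 it was 0.65. The value of 1360 was 0.34 without wild type 1 and 1.23 without wild type 2. The value of S-element was 0.28 without egt8 and 1.08 without egt17. That of FB was 0.016 without wild type 1 and 0.74 without wild type 2.

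By point value, none of the 7 detected members went opposite ways in the pairs, as 32.2% of all features did. Only pogo, hobo and 1360 differed beyond counting error in both pairs, so a shared direction is not shown by the counts for the others. None of the 7 was at least 2-fold higher on the log2(FPKM + 1) scale in both mutants than in both wild types, a pattern seen in 0.529% of all features.

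Of 15 further families, all with at least 1 read in some library, 8 were higher in both alleles within the pairs, 1 was lower in both, 4 went opposite ways and 2 (Bari2 and transib1) had no reads in the shallow pair. Among the 8, Tc3 had equal read numbers in each pair (1 and 1, 5 and 5) and was higher only through depth. Only Tc1, Tc1-2 and mariner2, all of the Tc1/mariner superfamily, passed the filter, and limma called none of them (adjusted p of 0.9999 each, and 0.273 to 0.896 with the pair term). Tc1 stood at 0.950 FPKM in wild type 1 (10 reads), 3.87 FPKM in wild type 2 (107 reads), 3.42 FPKM in egt17 (35 reads) and 8.03 FPKM in egt8 (213 reads). Like 1360, it was higher within both pairs and overlapped between the genotypes. Tc1-2 stood at 2.60 FPKM in wild type 1 (27 reads), 1.24 FPKM in wild type 2 (34 reads), 5.94 FPKM in egt17 (60 reads) and 4.96 FPKM in egt8 (130 reads). Its mutant libraries lay above both wild types, with ratios of 2.28 in egt17 (interval 1.43 to 3.74) and 3.99 in egt8 (2.72 to 6.0), the latter close to that of hobo. Transib3, of the Transib superfamily, was under 1 FPKM except in egt8, with 0.220 and 0.418 FPKM for the wild types, 0.733 FPKM for egt17 and 1.09 FPKM for egt8. Mariner2 went opposite ways in the pairs, from 2.26 FPKM (wild type 1) to 1.25 FPKM (egt17) in the shallow pair and from 1.72 FPKM (wild type 2) to 2.27 FPKM (egt8) in the deep pair. So did hopper, with 0.441 against 0.340 FPKM in the shallow pair and 0.545 against 1.53 FPKM in the deep pair. Of these differences only that of hopper in the deep pair was beyond counting error (ratio 2.81, interval 1.45 to 5.78). INE-1, by far the most numerous family in the reference genome, had at most 2 reads in any library.

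The 8 members together gave 25.2 RPM (reads per 1000000 mapped reads) in wild type 1, 34.2 in wild type 2, 76.5 in egt17 and 61.8 in egt8. The sum was 3.04-fold higher in egt17 (interval 2.53 to 3.66) and 1.81-fold higher in egt8 (1.63 to 2.01) than in the paired wild type. Pogo supplied 372 of the 470 member reads of egt17. Without it the sums were 9.02 and 16.4 RPM in wild type, 15.9 in egt17 and 34.0 in egt8, so that the genotypes overlapped, and the ratios were 1.77 (1.26 to 2.50) and 2.08 (1.79 to 2.41). For the 15 other DNA transposons the ratios were 2.04 in egt17 (1.52 to 2.76) and 2.38 in egt8 (2.04 to 2.77).

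The 96 retroelements and other transposons gave 414 and 895 RPM in wild type, 3621 in egt17 and 9639 in egt8, ratios of 8.74 (8.39 to 9.11) and 10.8 (10.6 to 11.0) within the pairs. Of their 92 detected families 58 were higher within both pairs and 42 higher in both mutants than in both wild types, and 14 were so by at least 2-fold on the log2(FPKM + 1) scale, where none of the 7 listed or 15 other DNA transposons with reads was. The median log2 difference over detected families was 0.68 for the 7 members, 0.11 for the other DNA transposons and 0.35 for retroelements and others, beside 0.0046 over all 13613 detected features. These medians include many families near 0, and the order of the classes turned with the filter. Among families that passed it, the median was 0.73 for 6 members, 1.04 for 3 other DNA transposons and 1.5 for 34 retroelements and others. The members thus stood above the retroelements by the first count and below them by the second. The filter admits families through their mutant libraries alone, such as hobo, blood and Burdock, which raises the second count. All 34 retroelements and others that passed had a positive difference, against 76 of the 92 detected. The order of the classes was therefore not settled by either count. The share of transposon reads that came from the 8 members was 5.58% in wild type 1 (Clopper-Pearson interval 4.77 to 6.49), 3.63% in wild type 2 (3.34 to 3.93), 2.06% in egt17 (1.88 to 2.25) and 0.635% in egt8 (0.596 to 0.676). The mutants thus had a lower share of member reads among transposon reads beside a higher level of member reads in the library. A few families weighed heavily in the retroelement sums, and so in these ratios and shares. In egt8 the largest were 3S18 (32420 reads), Transpac (19194), Burdock (16829) and HeT-A (16819), of 153533 reads for retroelements and others.

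**Figure D3:**
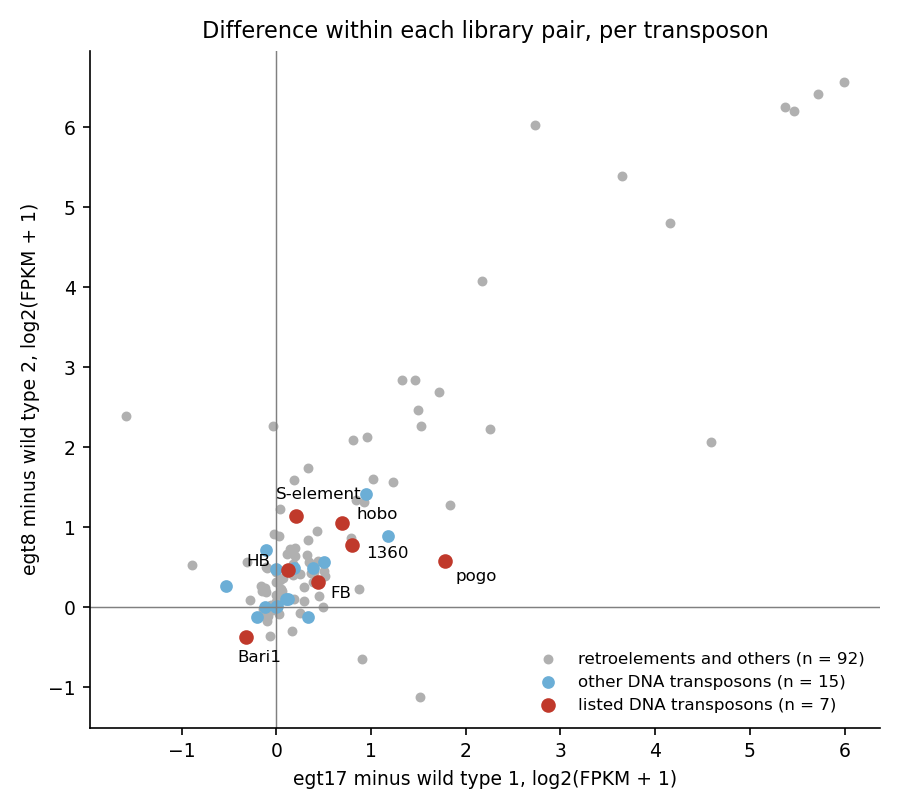
Difference on the log2(FPKM + 1) scale within each library pair for every transposon with reads, egt17 minus wild type 1 on the horizontal axis and egt8 minus wild type 2 on the vertical axis; 7 listed DNA transposons are red and named, 15 other DNA transposons blue, 92 retroelements and others grey. The named elements lie between -0.38 and 1.78 on both axes, with Bari1 lowest on both and pogo farthest to the right among them.

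**Figure D4:**
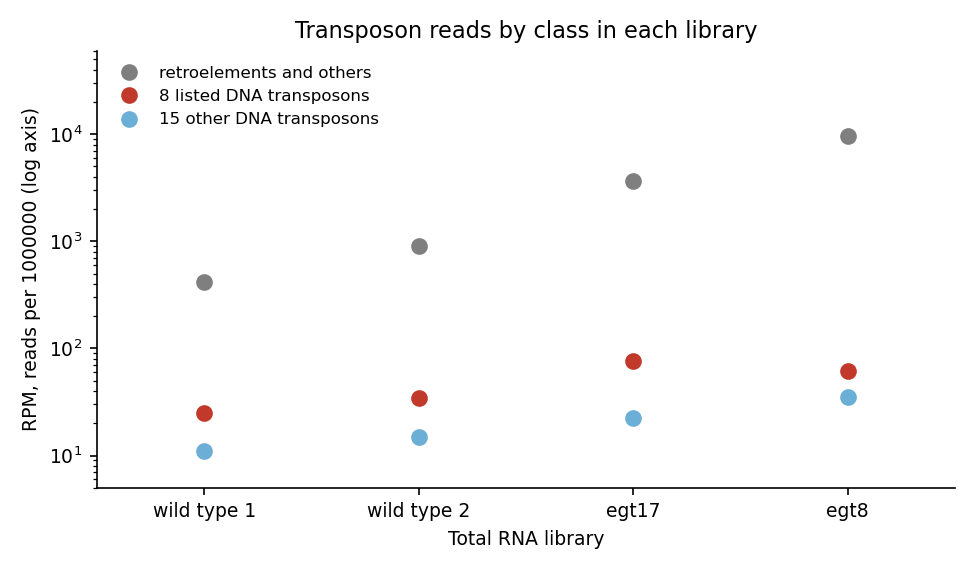
RPM of each total RNA library, on a log axis, summed over the 8 listed DNA transposons, the 15 other DNA transposons and the retroelements and others; points are single libraries. The listed DNA transposons go from 25.2 and 34.2 in wild type to 76.5 and 61.8 in the mutants, and the retroelements and others from 414 and 895 to 3621 and 9639.

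Among all transposons of at least 1 FPKM in some library (60), the profile nearest to each member was found from centred log2(FPKM + 1) values over the 4 libraries. Those nearest to pogo were the long terminal repeat (LTR) elements invader3 (distance 0.494) and 412 (0.812), both with egt17 above egt8. S-element lay nearest to the retrotransposon Rt1b (0.141), with egt8 alone well above the rest, and hobo to Dm88 (0.326) and then to S-element (0.374). HB lay nearest to Cr1a (0.151) and roo (0.158), which were higher in wild type 2 than in egt17. 1360 lay nearest to the LTR element 17.6 (0.291) and FB to mdg1 (0.206). No transposon lay close to Bari1. Its nearest, mariner2, was at 0.519, more than Bari1's own distance of 0.355 from a flat profile. Among 8710 genes the nearest were MtnA for pogo (0.0696), dally for 1360, cora for hobo, CG5618 for S-element, Galphas for FB, Gdh for HB and CG9062 for Bari1 (0.0188). So many genes were compared that a near match says little. The distances take no account of counting error.

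The number of insertions does not order the levels. The gene-name table used here names 5734 transposon insertions of the reference genome, of which 491 are 1360, 66 S-element, 61 FB, 60 hobo, 60 HB, 50 pogo, 7 Bari1 and 0 P-element. Pogo, with about as many insertions as hobo and HB, had the highest level in every library, and 1360, with the most, stood below FB in each. The insertions of Oregon-R and of the mutant stocks were not measured, and they may differ from those of the reference strain.

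Host factors of DNA transposition were considered as a list of 12 genes for P-element splicing and for repair of the gap that an excised element leaves. All 12 passed the filter, and limma called 0 of them, with or without the pair term (unadjusted p under 0.05 in 0 and 2). Within the pairs 3 were higher in both alleles, 7 lower in both and 2 opposite, and the median log2 difference was -0.17. Psi and Hrb27C, which repress splicing of a P-element intron outside the germline, had log2 differences of -0.15 ± 0.59 and 0.12 ± 0.49 (limma, n = 2 against 2). Irbp, the Ku70 protein that binds P-element inverted repeats and joins broken ends, had 69.8 and 49.6 FPKM in the wild types, 54.6 FPKM for egt17 and 31.4 FPKM for egt8, with a log2 difference of -0.50 ± 0.43 that was -0.11 without egt8 and -0.88 without egt17. Xrp1, a DNA damage response transcription factor that also binds P-element ends, had 7.82 and 16.2 FPKM in the wild types, 14.8 FPKM for egt17 and 31.0 FPKM for egt8, with a log2 difference of 0.87 ± 0.59 and overlapping groups. That of Xrp1 was 0.36 without egt8, 0.39 without wild type 1, 1.35 without wild type 2 and 1.38 without egt17.

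The small RNA table used here gives clusters, and small RNA against these elements was not analysed here. Of 92 clusters tested with limma, 20 passed (21.7% called), 15 lower and 5 higher in the mutants, and the number went from 2 without wild type 2 to 46 without egt8. It was 6 without wild type 1, 12 without egt17 and 33 with the pair term. Which of these clusters hold copies of the 8 elements was not determined here.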

How the data were processed

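Ovary total RNA and small RNA were sequenced in 4 libraries each. For total RNA, 35502 rows (35327 transcripts and 175 transposons) hold FPKM to which the authors had added 1: each deposited column had a minimum of exactly 1, and that 1 was taken off. For small RNA the authors deposited RPKM of 94 clusters. The submitters' processing notes list Bowtie2 (version 2.2.4) and the build dm6 with no role for either. How counting was done, how multiply mapping reads were shared out and whether strand was used is not given in the sources used here, so sense and antisense RNA cannot be told apart. Whole reads were recovered by comparing the steps of low values between libraries: all 118 transposon rows with reads in at least 2 libraries, and 2000 of 2000 transcript rows checked, came out whole at a tolerance of 0.001, and the 4 library totals were whole numbers. Count models were not run on them. Transcripts were summed by gene (32986 matched to RefSeq), a sum that may count shared reads more than once.

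Limma 3.58.1 in R 4.3.3 was run on log2(FPKM + 1) with a mean-variance trend and two-sided p-values. It used features of at least 1 FPKM in at least 2 libraries, with Benjamini-Hochberg adjustment over all features. This left 2 residual degrees of freedom, and fewer with the pair term or with a library left out. Clusters were fitted on log2(RPKM + 1) with no trend and a mean of at least 1. The fits were also run on simulated data with noise of the same size at every level and no counting error. That run does not bear on elements with few reads. Alternatives were no filter, a filter of 5 FPKM, a pseudocount of 0.1, scaling by the median ratio over genes, no trend, the library pair as a term and leaving out each library. The shallow and the deep pair of libraries come from depth and from deviations from the group means, which correlated at 0.763, not from the labels. The elements, lists and tests were chosen with earlier results of these data known. Named were all members, other DNA transposons of at least 1 FPKM in any library, host factors, and the nearest profiles by Euclidean distance. NOF and INE-1 were named after their values were seen. Bari2, Tc3, transib1 and the rows of other species were also named outside this rule. Python 3.11.15, numpy 2.4.6, pandas 2.3.3, scipy 1.17.1 and matplotlib 3.10.9 were used.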

Additional observations from a re-analysis of the deposited data

Results flagged for a closer look

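By point value, the DNA transposons hopper and mariner2 went opposite ways in the 2 alleles against the paired wild type. For hopper the log2(FPKM + 1) difference was -0.10 in egt17 and 0.71 in egt8, a distance of 0.82, from 4, 13, 3 and 35 reads in wild type 1, wild type 2, egt17 and egt8. For mariner2 it was -0.53 in egt17 and 0.27 in egt8, a distance of 0.80, from 13, 26, 7 and 33 reads. The FPKM ratios of mariner2 were 0.554 in egt17 (interval 0.187 to 1.49) and 1.32 in egt8 (0.768 to 2.31). For hopper they were 0.771 in egt17 (0.113 to 4.56) and 2.81 in egt8 (1.45 to 5.78). Only the last was beyond counting error, so the opposite directions are not shown by the counts. With 1 library for each allele neither difference was tested, and of all 13613 detected features 32.2% went opposite ways in the pairs.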

How the results depend on the processing

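None of the 7 members with reads was called under any alternative, and pogo, hobo, 1360, S-element, FB and Bari1 kept their direction under every alternative in which they passed the filter; hobo and Bari1 gave no value where a left-out library, a scaling (hobo) or the filter of 5 FPKM removed them. The log2 difference of HB ranged from -0.18 (without egt8) to 0.76 when each library was left out, and was -0.0067 without wild type 1. The same ranges were -0.16 to 0.76 for hopper, -0.40 to 0.14 for mariner2, -0.67 to 0.36 for Psi, -0.33 to 0.58 for Hrb27C, -0.88 to -0.11 for Irbp and 0.36 to 1.38 for Xrp1. The pseudocount of 0.1 moved hobo from 0.87 to 1.73. The number of features called was 0 in the fit without a block, 13 with the replicate block of library pairs, and 3 to 9 when a library was left out, which leaves a lone sample assumed to vary like the other group; no DNA transposon or listed host factor was among those called in any of these. The number of clusters called went from 20 to 33 with the pair as a block, to 13 with a pseudocount of 0.1, and to between 2 and 46 when a library was left out. The cause was not tested. The comparison of clusters that hold copies of the elements was not run, since no map of copies was used here. Depth limits every element but pogo: in the shallow pair the other 6 with reads rest on 2 to 29 reads.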

Other observations

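The table also lists Bari1 of another Drosophila species, on a row named Ddip\Bari1. It had 0 reads in wild type 1, 2 reads in wild type 2, 1 read in egt17 and 12 reads in egt8 (0.449 FPKM), and Bari2 of the studied species had 0, 1, 0 and 8 reads in the same order. Both were highest in egt8. Bari1 itself was lowest there, but not detectably below egt17 (ratio 0.868, interval 0.359 to 2.31).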
